A study of Mus musculus with 10 samples.

Results

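The immediate early genes *Fos*, *Fosb*, *Jun*, *Junb*, *Atf3*, *Egr1*, *Egr2*, *Ier2*, *Nr4a1* and *Nr4a3* were measured in mouse gastrocnemius, the large calf muscle. They were chosen by name, as 10 of the 19938 genes for which a probe set carried a single gene symbol, and each had 1 probe set. A filter on low signal, the 40th percentile of the genes' means (3.23 on the log2 scale), kept 11963 genes and 8 of the 10. *Fosb* and *Nr4a3* fell under it, so their estimates come from a fit with no filter over all 19938 genes.

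The data were 10 Affymetrix arrays, each hybridised with RNA from a pool of 5 male C57BL/6 mice, from a study of exercise by an ancestor and the muscle of its descendants. F0 animals had voluntary exercise (F0 EX) or stayed sedentary (F0 SED), were paired with mates of the same kind, and gave 1 pool each at 28 weeks of age. F1 animals were their offspring and F2 animals came from matings between F1 littermates. All F1 and F2 animals were themselves sedentary and were killed at 8 weeks, so EX and SED name only their ancestry there, with 2 pools for each ancestry in each of these generations. No group carried an engineered allele in the labels, and the interval between the last running and the removal of the muscle is not given in the sources used here.

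Immediate early genes are transcribed within minutes of a stimulus without new protein synthesis, because the factors that switch them on, such as serum response factor and the cAMP response element binding protein, are already in the cell. Most of them encode transcription factors, and their messenger RNAs are short-lived. In skeletal muscle, contraction, stretch and adrenergic signals are known to induce them for a short time. Fos, Fosb, Jun and Junb are subunits of the AP-1 dimer and Atf3 is a related stress-induced leucine zipper protein. Egr1 and Egr2 are zinc finger factors, Ier2 is a nuclear protein of the early serum response, and Nr4a1 and Nr4a3 are orphan nuclear receptors that control genes of glucose and fat metabolism in muscle.

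Promoter sequence was looked at because these genes share a mode of induction. The RefSeq table of assembly GRCm38.p6 held windows, from 250 bases before to 50 after an annotated start, for 8 of the 10 genes, 12 windows in all. TGACG, the core of the cAMP response element, was found on either strand in 7 of the 8 genes, all but *Jun*, beside 23% of the 27025 genes in the table. It was also present in 19 of 32 other immediate early genes. The serum response CArG box was found in *Egr2* alone, beside 1.81% of all genes and 0 of the 32 others. The Egr site GCGGGGGCG was found in *Fosb* and *Nr4a1*, beside 3.31% of all genes and 5 of the 32 others. The full element TGACGTCA, which holds TGACG at each strand, was found in 0 of the 8 genes and 2.03% of all. Of the 32 others, 5 held it. The AP-1 site TGANTCA had 0 of 8 against 8.97% of all and 2 of the 32 others. The Nr4a site AAAGGTCA had 0 of 8 against 1.7% of all and 0 of the 32 others. A match describes letters in the window and is no evidence of a bound site. The table held no window for *Egr1* or *Ier2*, so their promoters were not searched. Sites outside the windows were not searched either, so the absence of a match does not show that a gene lacks the site.

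The 250 bases before the start are shown for *Egr2*, the gene with a CArG box in its windows. *Fos* and *Nr4a1* were added by choice after the matches were seen. Each is on the plus strand of GRCm38.p6 and runs 5′ to 3′, with the CArG box, TGACG on either strand (CGTCA when on the other) and the Egr site (here CGCCCCCGC) in capitals. *Egr2* is at chr10:67537619-67537868, *Fos* at chr12:85473640-85473889 and *Nr4a1* at chr15:101266596-101266845.
Egr2: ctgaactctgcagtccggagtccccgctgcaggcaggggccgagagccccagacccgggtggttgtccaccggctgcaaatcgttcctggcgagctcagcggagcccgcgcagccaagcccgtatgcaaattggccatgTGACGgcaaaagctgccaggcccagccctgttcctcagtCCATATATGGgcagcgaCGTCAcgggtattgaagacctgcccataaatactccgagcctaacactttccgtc
Fos: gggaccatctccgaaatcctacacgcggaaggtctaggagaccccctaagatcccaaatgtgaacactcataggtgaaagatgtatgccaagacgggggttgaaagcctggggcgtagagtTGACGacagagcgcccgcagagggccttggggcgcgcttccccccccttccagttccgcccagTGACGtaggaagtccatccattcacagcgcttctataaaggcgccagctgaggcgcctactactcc
Nr4a1: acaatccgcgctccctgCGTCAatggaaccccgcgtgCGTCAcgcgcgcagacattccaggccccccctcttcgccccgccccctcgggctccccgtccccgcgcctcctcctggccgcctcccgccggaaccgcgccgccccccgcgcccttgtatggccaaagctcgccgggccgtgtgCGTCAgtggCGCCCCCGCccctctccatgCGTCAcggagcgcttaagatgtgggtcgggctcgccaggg
*Egr2* has 5 windows, and the one shown is the first of those with the most matches. In it the CArG box lies at positions -72 to -63, between TGACG matches at -111 to -107 and -55 to -51. In the window that begins at 67537680 the same box lies at -133 to -124. The window that begins at 67537316 holds another CArG box (CCTTTTTTGG) at -72 to -63 and no TGACG match. *Fos* has its matches at -129 to -125 and -66 to -62. *Nr4a1* has 4 TGACG matches and an Egr site at -60 to -52, which lies between the matches at -69 to -65 and -40 to -36.

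**Figure D1:**
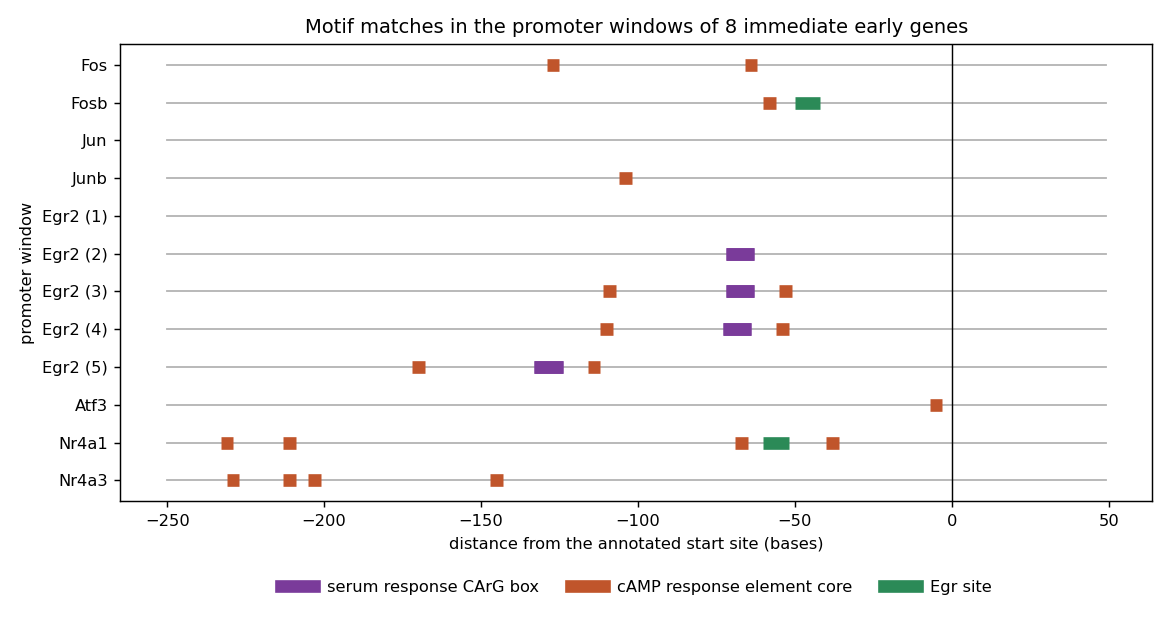
Motif matches in the 12 promoter windows of 8 immediate early genes, drawn to scale as distance in bases from the annotated start site; colours mark the CArG box, the cAMP response element core and the Egr site. TGACG appears in 7 of 8 genes, and the CArG box in *Egr2* windows only.

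The labelled tissue was checked against its markers, and 10 muscle fibre genes had mean log2 signals from 11.44 (*Myh2*) to 13.46 (*Acta1*). F0 SED and F1 EX pool 1 stood apart. Their median Pearson r with the other arrays across the kept genes was 0.974 and 0.979, against 0.986 to 0.993 for the rest, and their lower quartile of signal was 2.48 in each against 2.28 to 2.32. Whether both pools of a group came from separate animals is not stated in the labels, and the p-values reflect no more than pool-to-pool spread, part of which could be technical. The signals of 8 of the 10 immediate early genes averaged 2.88 to 4.63, near the medians over all probe sets of the arrays (3.22 to 3.36), and no detection calls were used. In bulk RNA, fewer cells of a type and less RNA per cell cannot be told apart.

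None of the 10 genes passed the test (limma, Benjamini-Hochberg adjusted p of 0.05) in any of the 6 tested comparisons. Between F0 and the descendants, *Fos*, *Egr1* and *Egr2* had the largest estimated differences, each lower in F0. Between descendants of EX and SED ancestry, *Jun* was estimated higher and *Egr1* lower with EX ancestry. Between F2 and F1, *Nr4a3* was lower and *Fos* higher in F2 by estimate. *Nr4a1* differed most within F0, where a single pool stands for each group. The number of arrays limited the precision: the median 95% interval reached 0.23 to 0.47 log2 units to each side of an estimate.

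**Figure D2:**
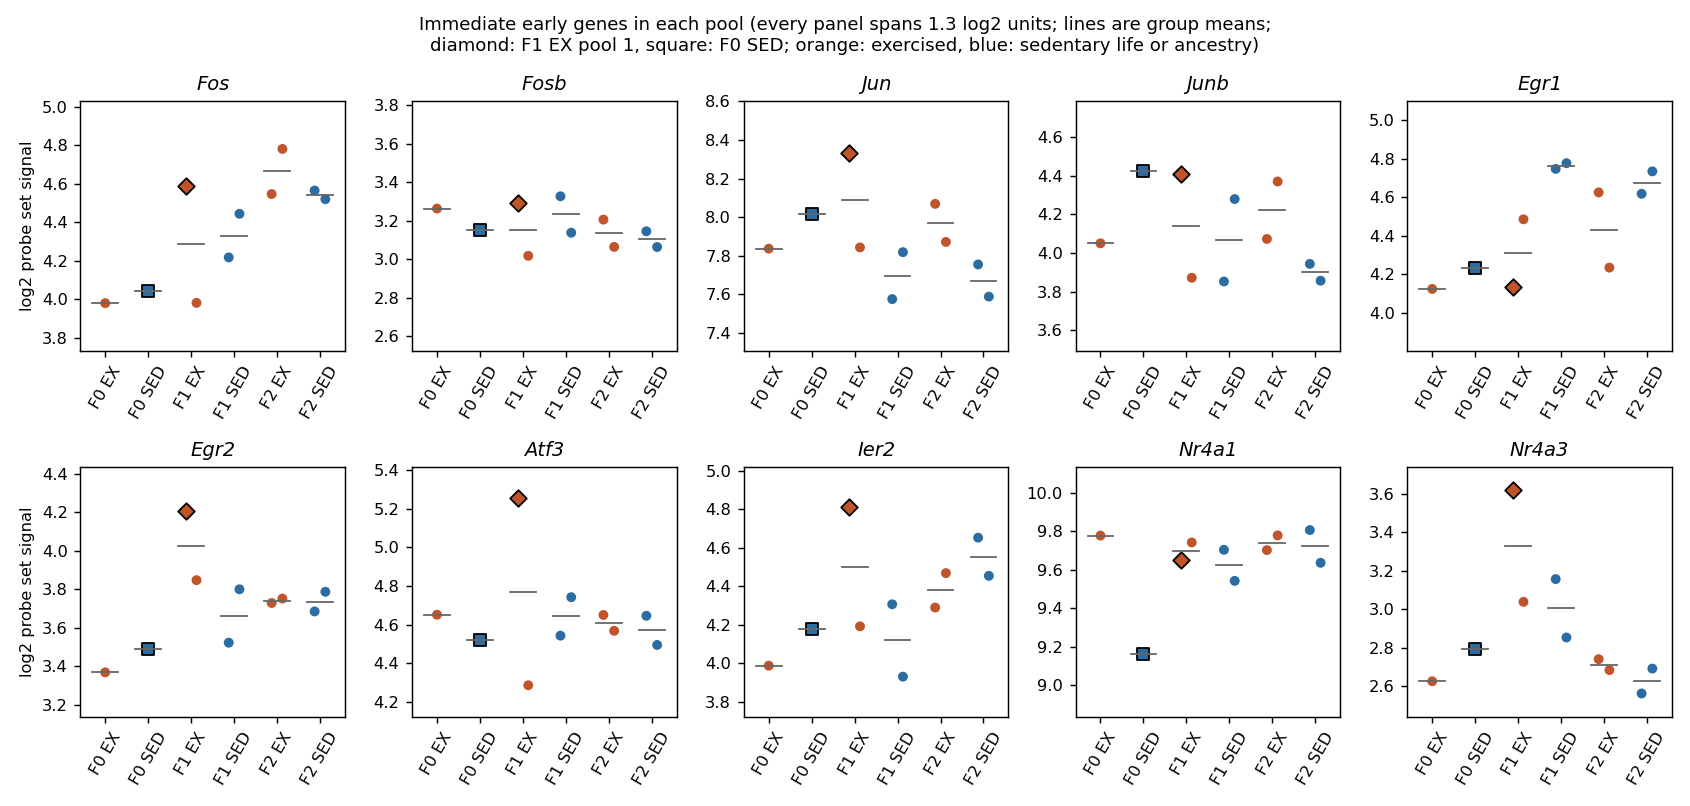
Log2 probe set signal of each of the 10 genes in the 10 pools, by group; every panel spans 1.3 log2 units, points are pools (orange EX, blue SED), lines are group means, the diamond is F1 EX pool 1 and the square F0 SED. F1 EX pool 1 is the highest array for *Jun*, *Egr2*, *Atf3*, *Ier2* and *Nr4a3*, and F0 SED the lowest for *Nr4a1*.

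F0 was compared with the mean of F1 and F2 in 1 model on all 10 arrays. Of the 11963 genes, 184 (1.54%) were called lower in F0 and 95 (0.794%) higher, and 0 of the 8 kept immediate early genes were in either set. Their unadjusted p was under 0.05 for 3 of 8, against 2106 genes (17.6%) of all. The median difference was -0.26 over the 8 and -0.02 over all genes, with 2 of 8 estimates above 0. The F0 arrays did not overlap those of descendants for 1 of 8 genes, *Egr2*, which was lower (6.65% of all genes), and 0 of 8 were higher without overlap (5.79%). Generation, age and the F0 animals' own exposure cannot be told apart in this comparison.

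Other markers moved with the same comparison. Of 10 fibroblast and matrix markers, 6 fell in F0, with a median difference of -0.85, and their summed log2 signal was 11.91 to 12.28 in F0 and 13.28 to 13.62 in descendants. Of 10 endothelial markers, 2 fell (median -0.41; summed signal 9.76 to 10.00 against 10.22 to 10.33). Of 4 kept keratinocyte markers, 3 rose in F0 (median 1.15), and the 7 on the array summed to 7.35 to 7.93 in F0 against 6.43 to 6.77. None was called among 13 myeloid (median -0.33), 10 muscle fibre (-0.20), 8 smooth muscle (-0.19), 8 satellite cell (-0.19), 6 adipocyte (0.02), 4 Schwann cell (-0.26) and 2 erythrocyte markers (0.00). No marker was listed at 0. Their part in the differences of the immediate early genes was not tested.

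*Fos* encodes the AP-1 subunit whose induction is most often used as a mark of recent stimulation. The F0 EX pool read 3.98 and the F0 SED pool 4.04. In F1 it was 4.59 and 3.98 in the EX pools and 4.22 and 4.44 in the SED pools, and in F2 it was 4.55 and 4.78 in EX and 4.57 and 4.52 in SED. The F0 arrays were thus low, but F1 EX pool 2 was as low as F0 EX. *Fos* was estimated 0.44 log2 units lower in F0 than in descendants (-0.44, SE 0.15, 95% interval -0.77 to -0.12, limma adjusted p = 0.152), or 1.36-fold. Without F0 SED and F1 EX pool 1 the estimate was -0.39. Between generations of descendants, *Fos* averaged 4.31 ± 0.27 in F1 and 4.60 ± 0.12 in F2 (SD, n = 4 each), and by the fit F2 was 0.29 above F1 (SE 0.13, limma adjusted p = 0.911). The 4 F2 pools ran from 4.52 to 4.78 and the 4 F1 pools from 3.98 to 4.59, so the generations overlapped. The difference was 0.40 without F1 EX pool 1 and 0.16 without F1 EX pool 2. By ancestry it was 0.04, and -0.07 without F1 EX pool 1.

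*Jun* encodes a partner of Fos in the AP-1 dimer. The F0 EX pool read 7.84 and the F0 SED pool 8.02. The EX descendants read 8.33 and 7.84 in F1 and 8.07 and 7.87 in F2, and the SED descendants read 7.57 and 7.82 in F1 and 7.75 and 7.59 in F2. Every EX descendant pool was above every SED descendant pool, though the nearest were close, at 7.84 and 7.82. The means were 8.03 ± 0.23 and 7.68 ± 0.12 (SD, n = 4 each), and the ancestry difference over both generations was 0.35 (SE 0.12, 95% interval 0.08 to 0.61, limma adjusted p = 0.888), or 1.27-fold. It was 0.39 in F1 and 0.30 in F2. Without F1 EX pool 1, the highest of the 10 arrays for *Jun*, the difference over both generations was 0.24 and that in F1 0.15. The F0 pair differed the other way, by -0.18 (EX minus SED), and with that pair included the ancestry difference was 0.24. *Jun* differed by 0.07 between F0 and descendants and by -0.07 between F2 and F1.

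*Junb* encodes an AP-1 subunit that is a weaker activator than Jun. It was 4.05 in F0 EX and 4.43 in F0 SED, and 4.41 and 3.87 in F1 EX, 3.85 and 4.28 in F1 SED, 4.07 and 4.37 in F2 EX, and 3.94 and 3.86 in F2 SED. Pools of 1 group lay up to 0.54 apart. In F2 the EX pools were above the SED pools, by 0.32 on average (SE 0.21, limma adjusted p = 1.00). *Fosb*, under the signal filter, ran only from 3.02 to 3.33 over the 10 arrays, and its estimates lay between -0.08 and 0.11 in all comparisons, the F0 pair included. Its SD was at percentile 7.52 of the kept genes' SDs.

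*Atf3* encodes a stress-induced factor that can dimerise with Jun proteins. It was 4.65 in F0 EX, 4.52 in F0 SED, 5.25 in F1 EX pool 1 and 4.28 in F1 EX pool 2. The other 6 arrays, of F1 SED and F2, lay between 4.49 and 4.74. F1 EX pool 1 was therefore the highest array and its partner the lowest. *Atf3* differed by 0.13 with ancestry in F1, by 0.08 over both generations, by -0.12 between F2 and F1 and by -0.06 between F0 and descendants. Without F1 EX pool 2, with F1 EX represented by pool 1 alone and that pool assumed to vary like the others, the F1 difference was 0.61 for *Atf3* (limma adjusted p = 0.0370) and 0.64 for *Jun* (adjusted p = 0.0458). In the same fit 1046 genes were called, against 0 with both pools. Without F1 EX pool 1 instead, the F1 difference was -0.36 for *Atf3*, the opposite sign, and 0.15 for *Jun*, and neither passed (adjusted p = 0.998 each). The *Atf3* difference over both generations was then -0.12.

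*Egr1* encodes a zinc finger factor that often rises together with *Fos*. It was 4.12 in F0 EX and 4.23 in F0 SED. It was 4.13 and 4.49 in F1 EX and 4.75 and 4.78 in F1 SED, and 4.63 and 4.24 in F2 EX against 4.62 and 4.73 in F2 SED. The SED descendants were close together and high, and the EX descendants were spread below them, with 1 overlap, F2 EX pool 1 at 4.63 over F2 SED pool 1 at 4.62. The means were 4.37 ± 0.23 with EX and 4.72 ± 0.07 with SED ancestry (SD, n = 4 each). The difference was -0.35 (SE 0.12, 95% interval -0.61 to -0.09, limma adjusted p = 0.888), with -0.45 in F1 and -0.25 in F2. Without F1 EX pool 1 the F1 difference was -0.28. Between F0 and descendants *Egr1* differed by -0.37 (SE 0.14, adjusted p = 0.190), and by -0.34 without the 2 arrays that stood apart.

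*Egr2* is known for its part in myelination and in lymphocytes. It was 3.37 in F0 EX and 3.49 in F0 SED, below every descendant pool. F1 EX had 4.21 and 3.85, F1 SED 3.52 and 3.80, F2 EX 3.73 and 3.75, and F2 SED 3.69 and 3.79. The nearest descendant pool, F1 SED pool 1 at 3.52, lay close to F0 SED. The difference between F0 and descendants was -0.36 (SE 0.14, limma adjusted p = 0.207), and -0.41 without the 2 arrays that stood apart. In F1 the EX pools were above the SED pools by 0.36 (SE 0.16, limma adjusted p = 0.804), and by 0.19 without F1 EX pool 1. In F2 the ancestry difference was 0.00.

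*Ier2* encodes a small nuclear protein that is among the first products after serum is added to cells. It was 3.99 in F0 EX, 4.18 in F0 SED, 4.81 and 4.19 in F1 EX, 4.31 and 3.93 in F1 SED, 4.29 and 4.47 in F2 EX, and 4.65 and 4.45 in F2 SED. The ancestry difference was 0.38 in F1 and -0.17 in F2, and the F1 value was 0.07 without F1 EX pool 1. The F2 effect minus the F1 effect of *Ier2* was -0.56 (95% interval -1.22 to 0.11, limma adjusted p = 0.919), and -0.25 without that pool. *Ier2* differed by -0.31 between F0 and descendants (adjusted p = 0.428) and by 0.16 between F2 and F1.

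*Nr4a1* encodes the receptor Nur77. In F0 EX it was 9.78 and in F0 SED 9.17. The 8 descendant pools lay between 9.54 and 9.81, with a mean of 9.70 ± 0.08 (SD). F0 SED was thus the lowest array and F0 EX within the range of the descendants. F0 EX exceeded F0 SED by 0.61, or 1.53-fold, the 1 difference of the 8 kept genes past 0.5 in that pair. With 1 pool a group there is no replicate check. A difference of this size was common between these pools: 1835 of 11963 genes (15.3%) were higher in F0 EX by 0.5 or more, and 644 (5.38%) lower. These counts depend on the scaling, with 1197 higher and 1162 lower after centring each array on its kept genes, 2932 and 305 after centring on all probe sets, and 1279 and 930 after quantile normalization. The *Nr4a1* difference was 0.49, 0.76 and 0.38 under these scalings. Between F0 and descendants *Nr4a1* differed by -0.22 (SE 0.13, limma adjusted p = 0.410). It passed without F0 EX (-0.51, adjusted p = 0.0414, F0 SED alone as F0) and was 0.06 without F0 SED. By ancestry it differed by 0.05 and between F2 and F1 by 0.07.

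*Nr4a3* encodes the receptor NOR-1, known for its strong induction by acute exercise in muscle. It was under the signal filter, and the F0 EX pool read 2.63 and the F0 SED pool 2.79. F1 EX had 3.62 and 3.04 and F1 SED 3.16 and 2.85, while F2 EX had 2.74 and 2.68 and F2 SED 2.56 and 2.69. All 4 F1 pools were above all 4 F2 pools, and the F0 pools lay at the level of F2. The means were 3.17 ± 0.33 in F1 and 2.67 ± 0.08 in F2 (SD, n = 4 each). The difference was -0.50 (SE 0.13, 95% interval -0.79 to -0.21), or 1.41-fold, with a limma adjusted p of 0.928 over all 19938 genes. Without F1 EX pool 1 it was -0.36. Groups lower in F2 without overlap were seen for 282 of those genes (1.41%). *Nr4a3* differed by 0.20 with ancestry (0.06 without F1 EX pool 1) and by -0.21 between F0 and descendants.

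**Figure D3:**
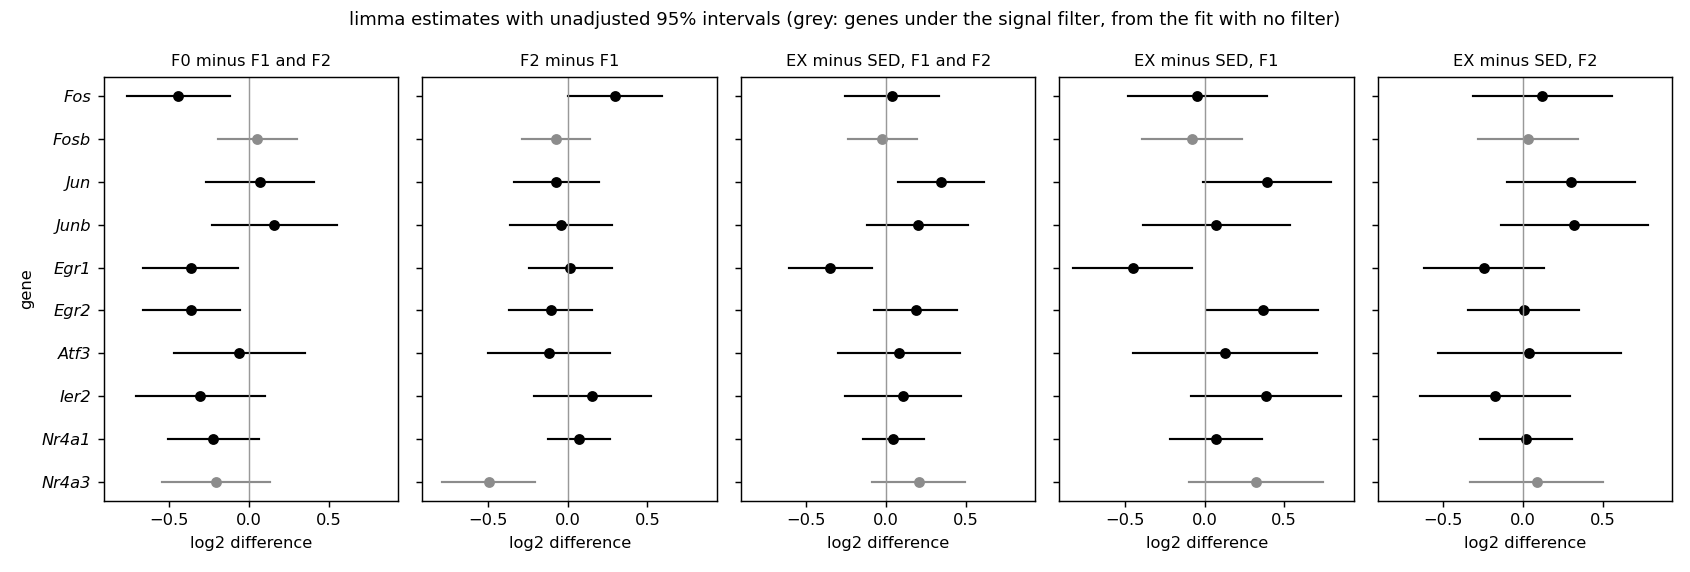
limma estimates in log2 units with unadjusted 95% intervals for the 10 genes in 5 comparisons; grey marks *Fosb* and *Nr4a3*, from the fit with no filter. The intervals of *Fos*, *Egr1* and *Egr2* lie below 0 for F0 minus descendants, and that of *Nr4a3* below 0 for F2 minus F1. For EX minus SED over F1 and F2, that of *Jun* lies above 0 and that of *Egr1* below. For EX minus SED in F1 alone, that of *Egr2* lies above 0 and that of *Egr1* below. No adjusted p passed.

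For ancestry over F1 and F2, 0% of the 11963 genes passed the test, and 597 (4.99%) had an unadjusted limma p under 0.05. The same held for 2 of the 8 kept immediate early genes, *Jun* and *Egr1*. EX pools were higher without overlap for 1 of 8 genes (*Jun*; 1.75% of all) and lower for 0 of 8 (1.28%). The median difference was 0.09 over the 8 and 0.01 over all genes. In F1 alone 0% passed and 584 genes (4.88%) had p under 0.05, with 2 of the 8 kept genes among them, *Egr1* and *Egr2*. There, *Jun* and *Egr2* were higher without overlap (13% of all genes) and *Egr1* lower (16.6%). In F2 alone 0% passed and 532 (4.45%) had p under 0.05, with 0 of the 8 among them. There, *Jun* and *Junb* were higher without overlap (25.8% of all genes) and 0 of 8 lower (14.6%). Shares of this size in 2 pools against 2 show that separation alone is common. The difference between the F1 and F2 effects had 0% past the test and 519 genes with p under 0.05, with 0 of the 8 among them.

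For F2 against F1, 0% of genes passed and 509 had an unadjusted limma p under 0.05, again with 0 of the 8 kept genes among them. The groups overlapped for all 8, beside 1.77% of genes higher and 1.11% lower in F2 without overlap. In the F0 pair, *Jun*, *Junb*, *Ier2* and *Atf3* differed by -0.18, -0.38, -0.19 and 0.13 (EX minus SED) and kept these signs under the 3 other scalings tried. The differences of *Fos* (-0.06), *Egr1* (-0.11), *Egr2* (-0.12), *Fosb* (0.11) and *Nr4a3* (-0.17) changed sign under at least 1 of them. The median over the 8 was -0.11, against 0.08 over all genes.

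The pools of F1 EX differed in most of these genes. Pool 1 exceeded pool 2 by 0.97 in *Atf3*, 0.62 in *Ier2*, 0.61 in *Fos*, 0.58 in *Nr4a3*, 0.54 in *Junb* and 0.49 in *Jun*. The gap was 0.36 in *Egr2*, 0.27 in *Fosb*, -0.09 in *Nr4a1* and -0.35 in *Egr1*, so *Egr1* ran the other way. At least 0.5 was reached by 5 of the 10 genes in F1 EX and by 0 of 10 in each other group. The 10 include *Fosb* and *Nr4a3*, which fell under the signal filter, and *Nr4a3* is among the 5. The values over all genes that follow are for kept genes only. Over all kept genes the shares were 15.3% in F1 EX (1830 genes), then 2.64% for F1 SED, 2.33% for F2 EX and 2.88% for F2 SED. The median size of the gap over the 10 genes was 0.51, 0.24, 0.16 and 0.12 in the same order, beside 0.23, 0.12, 0.11 and 0.12 over all kept genes. F1 EX pool 1 was the highest of the 10 arrays for 4 of the 8 kept genes and for 21.9% of all. In this array the mean deviation of the markers was 0.54 for erythrocytes (2 kept genes), -0.49 for adipocytes, -0.38 for keratinocytes (4 kept genes) and -0.18 for muscle fibres, and between 0.03 and 0.15 for the other 6 lists of cell type markers. Their part was not tested.

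**Figure D4:**
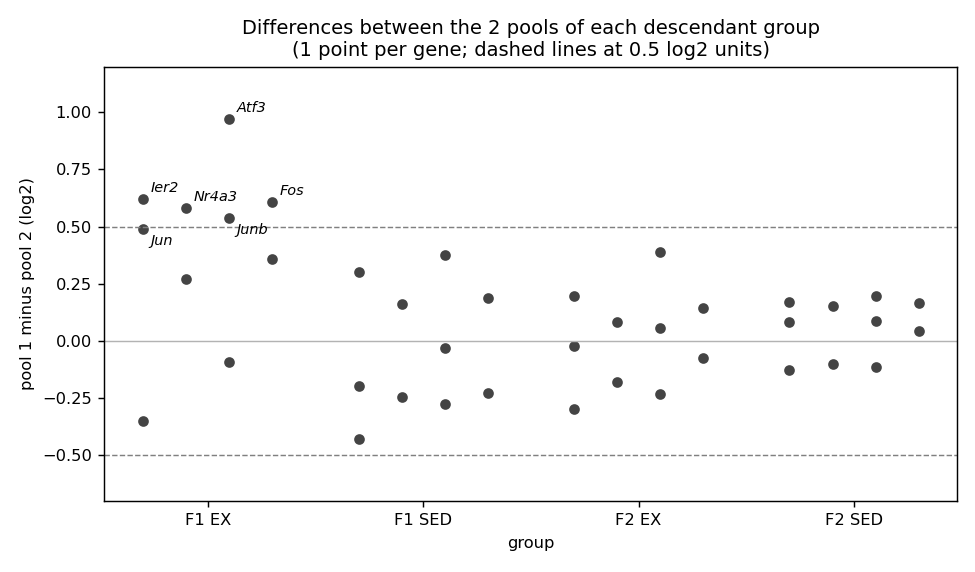
Difference in log2 signal between pool 1 and pool 2 of each descendant group, 1 point per gene for the 10 immediate early genes, with dashed lines at 0.5 log2 units. In F1 EX 5 genes lie above 0.5, up to 0.97 for *Atf3*; in the other 3 groups 0 genes do.

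Averaged over the 8 kept genes, the deviation from each gene's own mean was 0.28 in F1 EX pool 1, -0.17 in F0 EX and -0.14 in F0 SED, and between -0.11 and 0.08 in the other 7 arrays. F0 EX was the lowest of the 10 arrays for 3 of the 8 kept genes (*Fos*, *Egr1* and *Egr2*) and for 10.1% of all kept genes. F0 SED was the lowest for 1 of the 8 (*Nr4a1*) and for 27.2% of all. The genes differed in how near they lay to the average profile, with a root mean square distance from 0.13 for *Egr2* to 0.29 for *Egr1*. The average profile itself lay 0.13 from a flat line. That value is not the distance of each gene from a flat line, so it does not show whether the genes shared a profile. Outside all lists, the 5 genes nearest to the average profile over the 10 arrays were *Hnrnpul1* (distance 0.0496), *Sharpin* (0.0578), *Entpd4* (0.0605), *Tinagl1* (0.0607) and *Mycl* (0.0621). They were chosen by this distance, so their resemblance is a description.

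**Figure D5:**
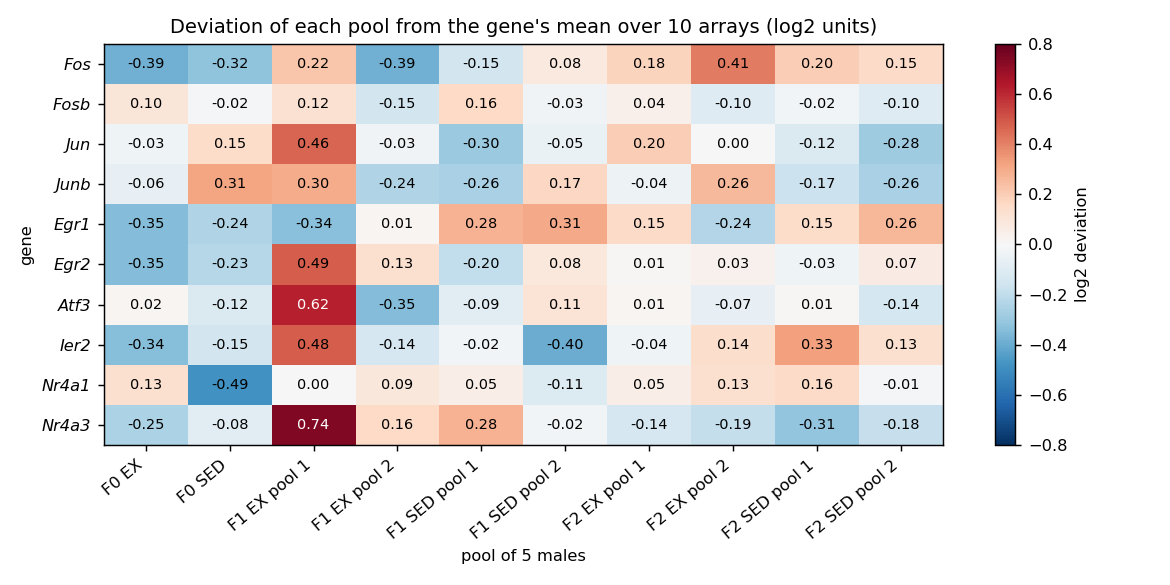
Deviation in log2 units of each pool from the gene's mean over the 10 arrays, for the 10 genes; red is above and blue below the mean. The column of F1 EX pool 1 holds the largest values (0.74 for *Nr4a3*, 0.62 for *Atf3*), with *Egr1* at -0.34.

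Among 41 kept genes of a wider list of immediate early genes, 1 fell in F0 against descendants, *Rhob* (a small GTPase; -0.93, SE 0.15, limma adjusted p = 0.00803). It was 5.34 and 4.83 in F0 and 5.63 to 6.49 in descendants. The median of the list was -0.14, with 12 of 41 estimates above 0, and *Myc* (-0.50, adjusted p = 0.0805), *Ccn2* (-0.63, 0.0819) and *Jund* (-0.38, 0.165) did not pass. Among 21 feedback regulators, 1 fell, *Dusp6*, a phosphatase that inactivates ERK kinases (-0.85, SE 0.11, adjusted p = 0.00265). Its signal was 6.14 and 5.63 in F0 and 6.51 to 6.96 in descendants. *Spry4* (-0.41, adjusted p = 0.135) and *Dusp5* (-0.43, 0.164) did not pass. The median was -0.08, with 6 of 21 estimates above 0. Among 35 upstream factors and kinases, 1 fell, *Map2k6*, a kinase that activates p38 (-0.52, SE 0.095, adjusted p = 0.0134). The median was 0.00, with 18 of 35 estimates above 0. Over all genes 1.54% were called lower in F0, so 1 gene in each of these lists is near the background share. *Mrtfb*, a cofactor of serum response factor, was at -0.45 (adjusted p = 0.0848). Next by limma p were *Camk2a* at -0.36 (adjusted p = 0.173) and *Mef2c*, which was higher in F0 at 0.27 (adjusted p = 0.179).

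By ancestry 0 genes of these lists passed. The median was 0.04 for the wider early genes (28 of 41 above 0), 0.07 for the feedback regulators (15 of 21) and 0.01 for the upstream factors (20 of 35), against 0.01 over all genes. The wider early genes with the smallest limma p were *Ccn2* (0.38), *Egr3* (-0.28), *Ier5* (0.31) and *Ier3* (0.28), each with an adjusted p of 0.888. *Egr3* thus had an estimate of the same sign as *Egr1* and opposite to *Egr2*. For F2 against F1 the median of the wider early genes was 0.11, with 31 of 41 above 0 and 0 called. The median was 0.005 over all genes and -0.01 over the 8 kept immediate early genes, with 4 of the 8 above 0. Among the wider early genes the smallest limma p belonged to *Gadd45b* (-0.27), *Errfi1* (0.35), *Rhob* (0.37) and *Btg2* (0.32), each with an adjusted p of 0.911. In the F0 pair 4 of the 41 wider early genes were higher and 3 lower in F0 EX by 0.5 or more, the feedback regulators had 1 higher and 3 lower of 21, and the upstream factors 6 higher and 3 lower of 35. Over all genes the shares were 15.3% higher and 5.38% lower.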

How the data were processed

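RNA was extracted from powdered muscle, diluted to 98 ng/µl, pooled from 5 animals and turned into biotin-labelled sense-strand cDNA, per the labels' protocols. The signals of 35557 probe sets were deposited on a log2 scale, as judged from their range of 0.966 to 14.2. Affymetrix Expression Console is named in the submitters' processing notes, with its version, normalization and build not given in the sources used here.

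Values were used as deposited. Gene symbols came from GEO's annotation of the platform, some of which may be outdated (21789 with 1 symbol, 1621 with several, 12147 with none; only the first kind named a gene). Entrez identifiers of 21698 probe sets matched the RefSeq table of GRCm38.p6, and 0 symbols changed. For 999 genes with several probe sets, the one with the highest mean was taken. The deposited columns all matched a sample.

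The tests used limma 3.58.1 under R 4.3.3 (lmFit, eBayes), and Benjamini-Hochberg adjustment ran over the 11963 kept genes. A model of the 4 descendant groups gave the F1 and F2 ancestry effects and their difference. An additive model of generation and ancestry gave the ancestry effect and F2 against F1 on 8 arrays, and F0 against the mean of F1 and F2 on 10. F0 EX and F0 SED were compared by size only, with a bound of 0.5. The fits were tested on simulated data. Alternatives changed the scaling, filter, variance model, array weights, replicate block and arrays included.

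All 10 genes were described in every comparison, up to 4 genes of each other list (called first, then smallest p), and the 5 genes nearest to the average profile. The 10 genes, the 3 pathway lists, the cell type markers and the motifs were chosen with earlier results of these data known.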

Additional observations from a re-analysis of the deposited data

Results flagged for a closer look

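In 1 of 50 sets of arrays examined, a sample lay far from the rest. *Atf3* was 5.25 in F1 EX pool 1, and the nearest of the other 7 descendant pools was at 4.74 (log2 signal). That gap was 0.528 of the whole range of the 8 pools, just past the limit for 8 samples. Chance marks about 1 in 20 such sets.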

How the results depend on the processing

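Over the alternatives, 1002 estimates of the 10 genes in the tested comparisons were recomputed, of which 62 took another sign (46 of 500 when 1 array was left out, 16 of 502 otherwise) and 3 passed the threshold: *Jun* and *Atf3* in F1 without F1 EX replicate 2, and *Nr4a1* in F0 against descendants without F0 EX. Leaving out 1 array moved the genes called from 0 to 1046 for F1 ancestry (8 without F1 SED replicate 1), with 0 to 2 of the immediate early genes among them, and from 0 to 143 for the difference of the F2 and F1 effects (5 without F1 SED replicate 1). For F0 against descendants, with 279 called, it gave 86 (without F0 SED) to 1231 (without F0 EX), with 0 to 1 of the immediate early genes, and 584 without F1 EX replicate 1, 185 without F2 EX replicate 2 and 181 without F2 SED replicate 2. Array weights gave 38 there, and leaving out both arrays that stood apart 170. For F2 against F1, a trended robust variance called 2 genes and array weights 1. In the F0 pair the genes higher in F0 EX numbered 1197 with kept-gene medians centred, a setting chosen after seeing the data, and 2932 with all-probe medians centred. Those lower numbered 1162, 305, 1578 with no filter and 264 with a filter at the 60th percentile. The causes were not tested. Many of the 1002 estimates could not take another sign, so the share that did is no measure of stability. Changes of filter or variance model leave an estimate as it was, as does the mean over probe sets for genes with 1 probe set. The replicate block leaves descendant estimates unchanged, since each group has 1 pool of each number. Leaving out a pool of 1 generation leaves the ancestry effect within the other unchanged. Without F0 SED and F1 EX pool 1, *Jun* (-0.09), *Junb* (-0.05), *Atf3* (0.16) and *Nr4a1* (0.05) took another sign in F0 against descendants.

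Pools with the same number did not deviate together (r from -0.11 to 0.06 over 6 pairs of groups). No pairing by the labels' numbers was seen, though an r near 0 cannot exclude one. With the replicate block 0 genes were called in each descendant comparison, and *Jun* by ancestry had a limma adjusted p of 0.891. Its estimate of 0.35 could not move, because each group had 1 pool of each number. Signal near the array medians limits what can be read for 8 of the 10 genes.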
